A study of Brassica oleracea with 4 samples.

Results

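The 4 RuBisCO small subunit genes of a broccoli (Brassica oleracea) seedling table were all lower after a calcium spray than after a water spray. They were chosen by annotation, as the genes whose deposited description contains "ribulose bisphosphate carboxylase" or "RuBisCO small", and make up 4 of the 135 genes in the table. All 4 carry the same description, a small chain family protein, and no gene for the large subunit was found by these words. RNA was sequenced from hypocotyls, the embryonic stems, of microgreens at 10 days. The seedlings had grown at 25 °C, for 4 days in darkness and afterwards with 12 h of light a day, whose intensity was 42 µmol per second and square metre. The water group had been sprayed daily with water alone and the calcium group daily with calcium chloride at 10 mmol/L. The labels give 2 libraries for each spray and do not say whether they came from separate trays.

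RuBisCO is the enzyme that fixes CO2 in the Calvin cycle. Its large subunit is encoded in the chloroplast genome, while the small subunit is encoded by a family of nuclear genes, RBCS, whose products are made in the cytosol and imported into the chloroplast. RBCS transcripts are known to be abundant in green tissue and to be induced by light. In Arabidopsis, AT5G38420 is the gene RBCS2B and AT5G38410 is RBCS3B, neighbours in a cluster that also holds RBCS1B, and RBCS1A lies on another chromosome.

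Each gene has 1 RPKM value (reads scaled by gene length and sequencing depth) per spray, so no value below carries a replicate error and no difference could be tested here. With neither library totals nor gene lengths at hand, the depth is unknown. The table is a selection of genes that differed: 135 of 135 genes (100% of the table) differ at least 2-fold in either direction, and 64 of 135 (47.4%) are at least 2-fold lower with calcium. The 4 RBCS genes are among these 64, and a 2-fold difference in each of them was a condition of being listed. RBCS genes outside the table were not analysed here. No gene of the table matched Arabidopsis RBCS1A (AT1G67090) or RBCS1B (AT5G38430), which says nothing about their level.

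Bo4g137150, which matches RBCS2B, had 1244 RPKM in water-sprayed and 485 RPKM in calcium-sprayed seedlings. Bo4g137140, also matching RBCS2B, had 1132 RPKM after water and 489 RPKM after calcium. Bo4g144000, the only copy matching RBCS3B, had 705 RPKM after water and 289 RPKM after calcium. Over these 3 abundant copies the calcium values ran from 289 to 489 RPKM and the water values from 705 to 1244 RPKM. For genes that are lower with calcium, the 2-fold condition of listing already forces this separation at these levels, so it is no separate result. Bo6g059930, the third copy matching RBCS2B, was the scarce one, with 181 RPKM after water and 47.4 RPKM after calcium. RPKM is scaled to gene length, so the levels of the copies can be set beside each other.

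**Figure D1:**
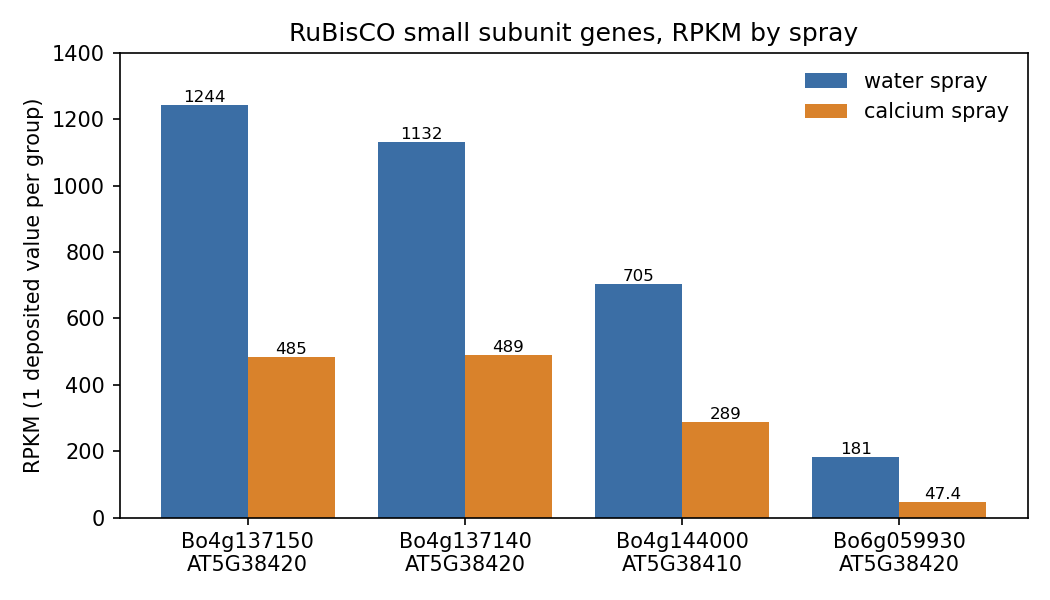
RPKM (vertical axis) of the 4 RuBisCO small subunit genes with water (blue) and calcium (orange), with the matched Arabidopsis gene under each name; each bar is the 1 deposited value of a group and has no error bar. All 4 calcium bars are lower than their water bars, and Bo4g137150 and Bo4g137140 reach nearly equal heights, 485 and 489 RPKM, with calcium.

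The RBCS levels were high for this table. With water, Bo4g137150 and Bo4g137140 ranked 3 and 4 among the 135 genes, behind only the antenna protein genes Bo4g182560 and Bo3g027740, and Bo4g144000 ranked 6. With calcium the same genes ranked 11, 10 and 22, in a table where 71 genes were higher with calcium. Bo6g059930 went from rank 28 to rank 81. Of the summed RPKM of all 135 genes, the 4 copies made up 11.8% with water and 5.34% with calcium. These shares refer to a selection of genes that differed, not to all transcripts.

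As ratios of RPKM, the 3 abundant copies differed between the sprays by similar factors. Bo4g137140 was 2.32-fold lower with calcium, Bo4g144000 was 2.44-fold lower and Bo4g137150 was 2.56-fold lower. The largest of these 3 ratios was 1.11 times the smallest. Bo6g059930 was 3.83-fold lower, which left it at 26.1% of its water level, against 39.0% to 43.2% for the other copies. The ratio of Bo6g059930 was 1.57 times that of the sum of the other 3 copies, which was 2.44-fold lower. Without replicate values it cannot be said whether this gap between copies exceeds the spread between libraries. At a limit of 3-fold, Bo6g059930 was the only RBCS gene left, 1 of 4, while 34 of the 135 genes (25.2%) were at least 3-fold lower. All of those 34 come from the 64 lower genes, whose median ratio was 3.11-fold lower.

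Summed over the 4 genes, RBCS stood at 3262 RPKM after water and 1310 RPKM after calcium. The sum was 2.49-fold lower with calcium, a log2 ratio of -1.32, and the median log2 ratio of the 4 genes was also -1.32. The median over all 64 lower genes was -1.64, and over all 135 genes it was 1.04, since more genes were higher than lower. The RBCS ratios were thus moderate for the lower genes of the table: by ratio, Bo6g059930 ranked 24 of 64 and the others ranked 41, 45 and 48. In RPKM lost, by contrast, 3 copies were near the top of the table. The fall of 759 RPKM in Bo4g137150 ranked 3, that of 643 RPKM in Bo4g137140 ranked 4 and that of 416 RPKM in Bo4g144000 ranked 5, while Bo6g059930, at 134 RPKM, ranked 21. Bo4g137150 gave 38.9% of the difference in the family sum, Bo4g137140 33.0%, Bo4g144000 21.3% and Bo6g059930 6.86%.

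The share of each copy in the family sum differed between the sprays by at most 2.61 percentage points. Bo4g137150 made up 38.1% of the family sum with water and 37.0% with calcium. Bo4g137140 made up 34.7% with water and 37.3% with calcium, the largest shift of the 4 at 2.61 percentage points. Bo4g144000 had almost equal shares, 21.6% and 22.1%. Bo6g059930 made up 5.56% with water and 3.61% with calcium, 1.94 percentage points less. These are shares among the 4 listed copies only. They carry no interval, because the read counts behind them are unknown.

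**Figure D2:**
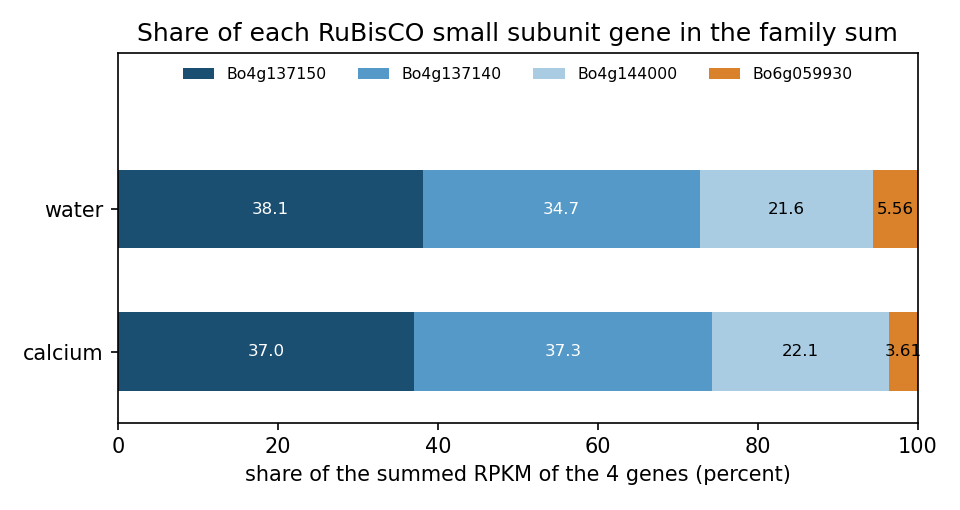
Share of each gene in the summed RPKM of the 4 RuBisCO small subunit genes (horizontal axis, percent), with water above and calcium below; each segment is computed from 1 deposited value per group. The widths differ between the sprays by at most 2.61 percentage points, for Bo4g137140, which goes from 34.7% to 37.3%. Bo6g059930 goes from 5.56% to 3.61%.

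The order of the leading copies differed between the sprays. With water, Bo4g137150 was 9.83% above Bo4g137140, and with calcium Bo4g137140 was 0.852% above Bo4g137150. Neither gap can be set against a replicate spread, so the order of these 2 copies is not settled in either spray. The next steps down were larger. Bo4g137140 was 1.61 times Bo4g144000 with water and 1.69 times with calcium, and Bo4g144000 was 3.89 times Bo6g059930 with water and 6.10 times with calcium. Had Bo6g059930 been lower by the factor of the family sum, its calcium value would have been 72.8 RPKM in place of 47.4 RPKM.

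Taking only the 3 copies that match RBCS2B, the sum was 2557 RPKM after water and 1021 RPKM after calcium, or 2.50-fold lower. The single RBCS3B match, at 2.44-fold lower, lay inside the range of the RBCS2B matches, 2.32-fold to 3.83-fold. Grouping by the matched Arabidopsis gene therefore did not separate the copies by their ratio. Copies of one family can be close in sequence, and the handling of reads that match several copies remains not given in the sources used here. To that extent the split between copies is uncertain, and whether shared reads move the values of single copies was not tested.

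Among the 13 Arabidopsis genes matched by more than 1 gene of the table, RBCS2B was the only one with 3 matches. Its largest ratio was 1.65 times its smallest, which ranked 5 from the widest of the 13. The copy with the largest ratio, in either direction, was the least abundant one over both sprays in RBCS2B and in 8 of the 13 sets in all. The sets include genes higher with calcium, and all but RBCS2B are pairs, in which either copy can have the larger ratio. The calcium value also enters both the ratio and the level, so 8 of 13 is not read as a pattern. In the antenna gene pairs for LHCB1.4 (AT2G34430) and LHCB2 (AT3G27690) the copy with the larger ratio was the more abundant one. The genes annotated LHCB1.3, which match different Arabidopsis genes and so form no such pair, went the other way. There the scarcer Bo7g044900, at 429 RPKM with water, was 3.06-fold lower and the abundant Bo4g182560, at 7288 RPKM, was 2.02-fold lower.

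The other photosynthesis genes of the table were 7 genes of the light-harvesting antenna, which binds chlorophyll and passes light energy to the photosystems, and PSAG, a subunit of photosystem I. All 8 were lower with calcium, beside 64 of all 135 listed genes (47.4%). The median log2 ratio of these 8 genes was -1.15, beside -1.32 for RBCS and 1.04 for the whole table. Their sum was 12627 RPKM after water and 5837 RPKM after calcium, or 2.16-fold lower beside 2.49-fold for RBCS. RBCS thus amounted to 25.8% of the summed RPKM of these genes with water and 22.5% with calcium. That gap rests partly on 1 gene, Bo4g182560 (annotated LHCB1.3), at 7288 and 3605 RPKM. Without it the remaining 7 genes were 2.39-fold lower in sum, and RBCS amounted to 61.1% of them with water and 58.7% with calcium.

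Ranked by ratio among these 12 photosynthesis genes, the RBCS copies all lay at rank 7 or above, with other genes between them. Bo6g059930 had the largest ratio, ahead of the antenna gene Bo7g044900 (annotated LHCB1.3) at 3.06-fold lower. Bo4g137150 ranked 3, Bo4g144000 ranked 5 and Bo4g137140 ranked 7. The 5 smallest ratios, from 2.01-fold to 2.24-fold, were all of antenna genes. The 2-fold limit cuts off any gene with a smaller ratio, so the lower end of both sets is fixed by the selection.

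**Figure D3:**
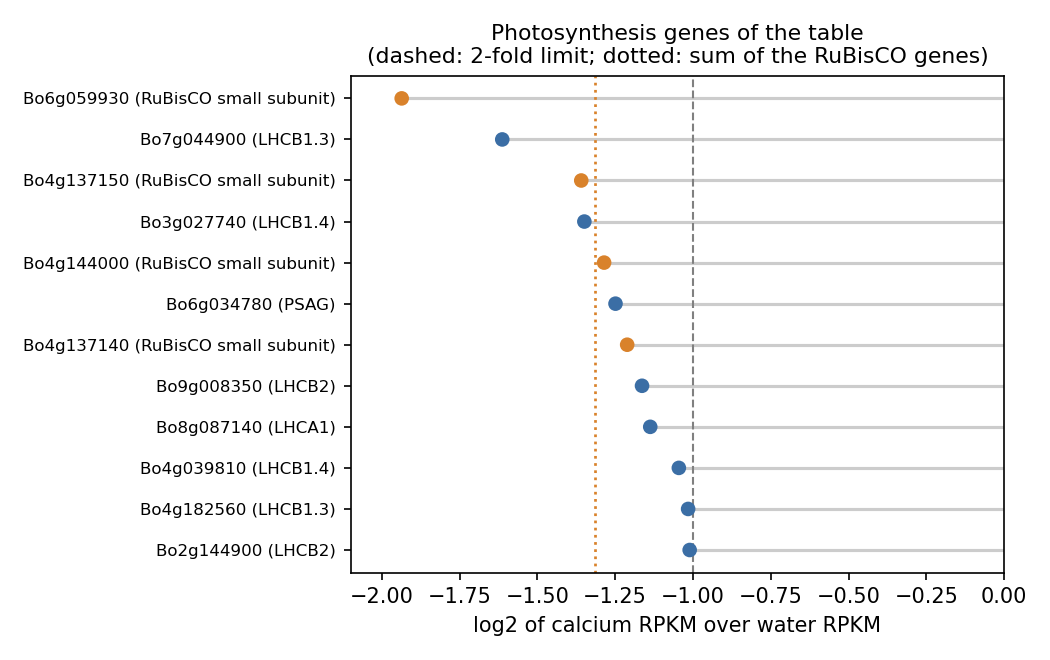
Log2 of calcium RPKM over water RPKM (horizontal axis) for the 4 RuBisCO small subunit genes (orange) and the 8 antenna and photosystem I genes (blue), each point from 1 deposited value per group. The dotted line marks the RuBisCO sum at -1.32, and the antenna genes LHCB2 (Bo2g144900) and LHCB1.3 (Bo4g182560) lie at the 2-fold limit with ratios of 2.01-fold and 2.02-fold.

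RBCS, antenna and photosystem genes mark green cells, such as those of cotyledons. All 12 of these in the table, 4 for RBCS, 7 for the antenna and PSAG, were lower with calcium, beside 64 of all 135 listed genes (47.4%). The table has 1 gene for the root marker words, RGF9, which encodes a root meristem growth factor and was 3.36-fold lower. It has 2 for the seed and embryo words, Bo9g120390 and Bo4g190800, both higher with calcium. Bo4g190800 is annotated as a late embryogenesis abundant protein. Bo9g120390 matched only through its superfamily name, which joins inhibitors, lipid-transfer proteins and seed storage 2S albumins, and need not be a seed gene. The root, seed and embryo matches are too few to check the hypocotyl label. In whole-tissue RNA, fewer green cells, or less cotyledon tissue in the sample, cannot be told apart from less RBCS RNA per cell.

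The table held no gene from the lists for other Calvin cycle enzymes, RuBisCO activase and assembly factors, electron transport and ATP synthase, chlorophyll synthesis, photorespiration, or light regulators. Carbon fixation was therefore represented by the RBCS genes alone. Genes with less than a 2-fold difference are not listed. The largest adjusted p-value that the authors list is 0.0423, from a test that is not given. A gene may thus be absent for its ratio or for its adjusted p-value. The absence does not show that genes of those 6 lists kept their level.

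Outside the family, the gene nearest to each copy in level was found by distance over the log2 RPKM of both sprays, which is 2 values a gene and describes only these values. Bo4g144000 lay closest to the LHCB2 gene Bo9g008350, with 647 RPKM after water and 289 RPKM after calcium, a distance of 0.12. Bo6g059930 lay closest to Bo4g020910, a knottin family gene at 213 and 44.7 RPKM, at a distance of 0.25. Bo4g137150 and Bo4g137140, close to each other in level, lay further from the genes outside the family. The nearest of these to both was the trypsin inhibitor TI1 (Bo4g019850), at 643 and 308 RPKM and distances of 1.16 and 1.05. By ratio alone, the 5 genes outside the family nearest to the family sum were the glutathione S-transferase GSTF9 (2.47-fold lower), SQE5 (2.54-fold), the LHCB1.4 gene Bo3g027740 (2.55-fold), and Bo2g082290 and Bo7g056280 (2.58-fold and 2.60-fold), which have no annotation.

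**Figure D4:**
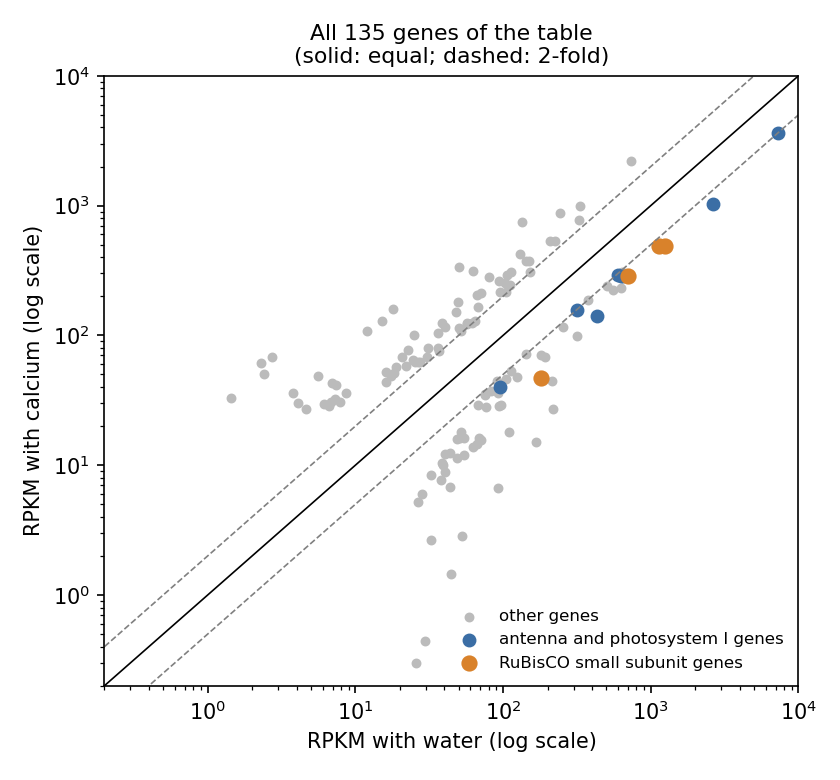
RPKM with water (horizontal axis, log scale) and with calcium (vertical axis, log scale) for the 135 genes, each point from 1 deposited value per group; the solid line marks equal values and the dashed lines a 2-fold difference. The RuBisCO genes (orange) lie under the lower dashed line, 3 of them at the abundant end beside the antenna genes (blue) and Bo6g059930 further down at 181 and 47.4 RPKM.

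For all 4 RBCS genes the authors' deposited table lists an adjusted p-value of 0. The authors' deposited table lists 0 for 41 of the 135 genes (30.4%), 19 of them among the 64 lower ones. The underlying test remains not given in the sources used here, and a listed 0 gives no size for the error. The authors' deposited table places all 4 copies in its cluster 3, which holds 56 genes with a median ratio of 2.78-fold lower. Within that cluster Bo6g059930 ranked 16 by ratio and the others ranked 33, 37 and 40.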

How the data were processed

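The authors deposited 1 RPKM value per gene for the control and 1 for calcium, per the file headers, for 135 genes. The labels name water as the single group besides calcium, so control is read as water. The way the 2 libraries of a spray were combined remains not given in the sources used here, as are the aligner, build and gene models. CASAVA is named, without a version, in the submitters' processing notes. The transformed RPKM columns of the deposited table were read as log10 RPKM and were not used. Its adjusted p-values, ratios and cluster numbers are the authors' own, per the file headers.

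RNA had been purified with a plant column kit and made into Illumina TruSeq libraries, per the labels' protocols. Calcium chloride at 1 and 20 mmol/L was also sprayed, per the labels' protocols, and is not analysed here.

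From the RPKM values, plain ratios, sums and shares were computed with Python 3.11.15, NumPy 2.4.6 and pandas 2.3.3, and figures were drawn with matplotlib 3.10.9. The computation was tested on simulated data. With 1 value per group, limma could not be run, and no p-value or standard deviation was computed. RPKM depends on gene length and on total mapped reads, so reads were not recovered.

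All family members are named. Also named are the gene outside the family nearest to each member over the log2 RPKM of both sprays, the 5 genes outside it with the ratio nearest to the family sum, and genes of word lists matched to the annotation. The members, lists and rules were chosen with earlier results of these data known. Of the 135 identifiers, 0 were found in the RefSeq gene table used for names, so names come from the deposited annotation and the Arabidopsis match. Gene positions and sequences were not used here. Pseudocounts, a level filter, subsets of the family, a 3-fold limit and scaling to other photosynthesis genes were tried as alternatives.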

Additional observations from a re-analysis of the deposited data

How the results depend on the processing

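RBCS was lower with calcium under every alternative tried, and each share shift kept its sign. All 4 genes were listed as at least 2-fold different and all were lower. Adding 1 or 5 RPKM, filtering by level or taking subsets therefore could not reverse the direction, which is no separate support for it. With no replicate spread or counting interval at hand, any value that differed at 2 decimals is given here. The log2 ratio of the family sum, -1.32 as reported, was -1.31 with 1 RPKM added to each gene and -1.30 with 5 RPKM added. It was -1.29 with only genes of at least 100 RPKM in both sprays, which removes Bo6g059930, -1.29 without Bo4g137150 and -1.37 without Bo4g137140. It was -0.20 relative to the other 8 photosynthesis genes, which are themselves all at least 2-fold lower in this selection. That value rests partly on Bo4g182560. Without it the remaining 7 genes were 2.39-fold lower in sum, beside 2.49-fold for RBCS. Per gene, the log2 ratio with 5 RPKM added was -1.35 for Bo4g137150, -1.20 for Bo4g137140, -1.27 for Bo4g144000 and -1.83 for Bo6g059930, and with 1 RPKM added it was -1.28 and -1.91 for the last 2. The share shifts (calcium minus water, in percentage points) with 1 and 5 RPKM added were -1.14 and -1.22 for Bo4g137150, 2.58 and 2.48 for Bo4g137140, and -1.90 and -1.74 for Bo6g059930, and with 5 RPKM added 0.48 for Bo4g144000. Among the 3 genes of at least 100 RPKM they were -1.98, 1.96 and 0.015 for Bo4g137150, Bo4g137140 and Bo4g144000. Among the 3 RBCS2B matches they were -1.15, 3.60 and -2.45 for Bo4g137150, Bo4g137140 and Bo6g059930. A 3-fold limit left 1 of the 4 genes. Leaving out single libraries was not run, since no value per library is at hand. No paired analysis was possible because each spray has 1 value per gene. The unknown depth leaves the precision of every value unknown.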
